A study of Mus musculus with 19 samples.

Results

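Pancreatic islets of C57BLKS/J (BLKS) mice kept in 20 mM glucose were compared with islets of the same strain kept in 5 mM glucose. The mice were chosen by strain and glucose concentration alone, as the labels give them, which took in 9 of the 19 mice measured. Of these, 5 belong to the low glucose group and 4 to the high glucose group. Islets were isolated from mice of 12 weeks, kept for 48 h in 11 mM glucose and then cultured for 24 h in either concentration. Each mouse is a separate sample and none was pooled, and no transgene or drug is named for any group. The other 10 mice are C57BL/6 (B6) in the labels and C57BL6/J in the methods, with 5 in each glucose concentration. They serve for comparison and, since all 19 mice entered the same model, also for the estimate of the spread between mice. RNA of every mouse was labelled in 2 reactions, 1 for Cy3 and 1 for Cy5, and hybridised to 2-colour Agilent mouse arrays, so that a value below is the mean log2 signal of a mouse over both dyes.

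Islets adjust their transcripts to the glucose around them over hours to days. Glucose metabolism in the β-cell acts on transcription through ChREBP, a glucose-sensing factor encoded by Mlxipl with Txnip among its best known targets, and it drives synthesis of proinsulin, which is translocated into the endoplasmic reticulum (ER), folded, given disulphide bonds and carried to the Golgi in coated vesicles. A greater load on the ER is met by the unfolded protein response, in which ATF6, IRE1 with XBP1, and PERK raise chaperones, enzymes of glycosylation and parts of the vesicle machinery.

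The islet origin of the samples was checked on its defining markers. Probes of Ins1, Ins2, Iapp, Gcg and Sst, the hormone genes of β-, α- and δ-cells, had mean log2 signals of at least 15.9 in both groups and were saturated in at least 1 dye in all 9 mice. Saturation leaves a lower bound for these genes, so that a response of insulin or glucagon transcripts to glucose could not be read from the arrays. Per array and dye, the median spot had a signal of 75.1 to 103 units and the negative control spots a signal of 50.8 to 60.3 units, and any 2 BLKS mice correlated over probes with coefficients between 0.983 and 0.998.

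A library that goes against its label has to be named before the results. Over 106 probes that separate the strains among the high glucose mice, each mouse was placed on a scale with the B6 mean at 0 and the BLKS mean at 1. The library labelled BLKS low glucose 5 lay at -0.01 and that labelled B6 low glucose 4 at 0.99, whereas the other 4 BLKS low glucose mice lay at 0.93 or above. Results are therefore given with all 9 mice and again with that library (called mouse 5) left out. Whether these libraries were exchanged was not tested.

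Of 29326 probes tested, 3403 differed between the glucose concentrations in BLKS islets at an adjusted p below 0.05 in limma (11.6% of those tested). Signals of 1899 probes rose in high glucose (6.48%) and those of 1504 fell (5.13%). Without scaling between arrays the split turned to 676 rising and 1475 falling, while the median response over all probes was -0.02 and not -0.003. Most responses were small, with a median size of 0.27 on the log2 scale among called probes, and the change exceeded 1.5-fold at 122 rising and 81 falling probes. It exceeded 2-fold at 16 rising and 2 falling probes. The groups did not overlap at 3910 probes (13.3%), with 7.09% of all probes higher and 6.24% lower in high glucose. Without the library labelled BLKS low glucose 5, 2524 probes were called (8.61% of those tested), of which 1449 rose (4.94% of those tested) and 1075 fell (3.67%). The calls of 2419 probes were shared in the same direction, and no probe called with all 9 mice changed its sign when the library was left out. Without both discordant libraries, those labelled BLKS low glucose 5 and B6 low glucose 4, 2904 probes were called, of which 1627 rose and 1277 fell. With the 9 BLKS mice fitted alone, 2874 probes were called.

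The clearest pattern in named genes was a rise across the secretory pathway. Over 4 lists that cover ER chaperones, ER translocation, vesicle coats and glycan assembly, 78 of 132 genes rose and 1 fell, against 7.38% rising and 6.56% falling over all 15998 genes tested with 1 probe each. The median response of these genes was 0.25 on the log2 scale, against -0.004 over all genes. Without the library labelled BLKS low glucose 5, 65 rose and 0 fell, with a median response of 0.23, beside a background of 5.82% rising and 4.68% falling. The median level of the 132 genes, taken as the difference from the mean of the 9 mice, lay between -0.23 and -0.05 in the low glucose mice and between 0.11 and 0.17 in the high glucose mice, so that the groups did not overlap. Of the 132 genes, 71 were higher in every high glucose mouse than in every low glucose mouse, against 7.86% of all genes. The library labelled BLKS low glucose 5 gave the lowest value of all.

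**Figure D1:**
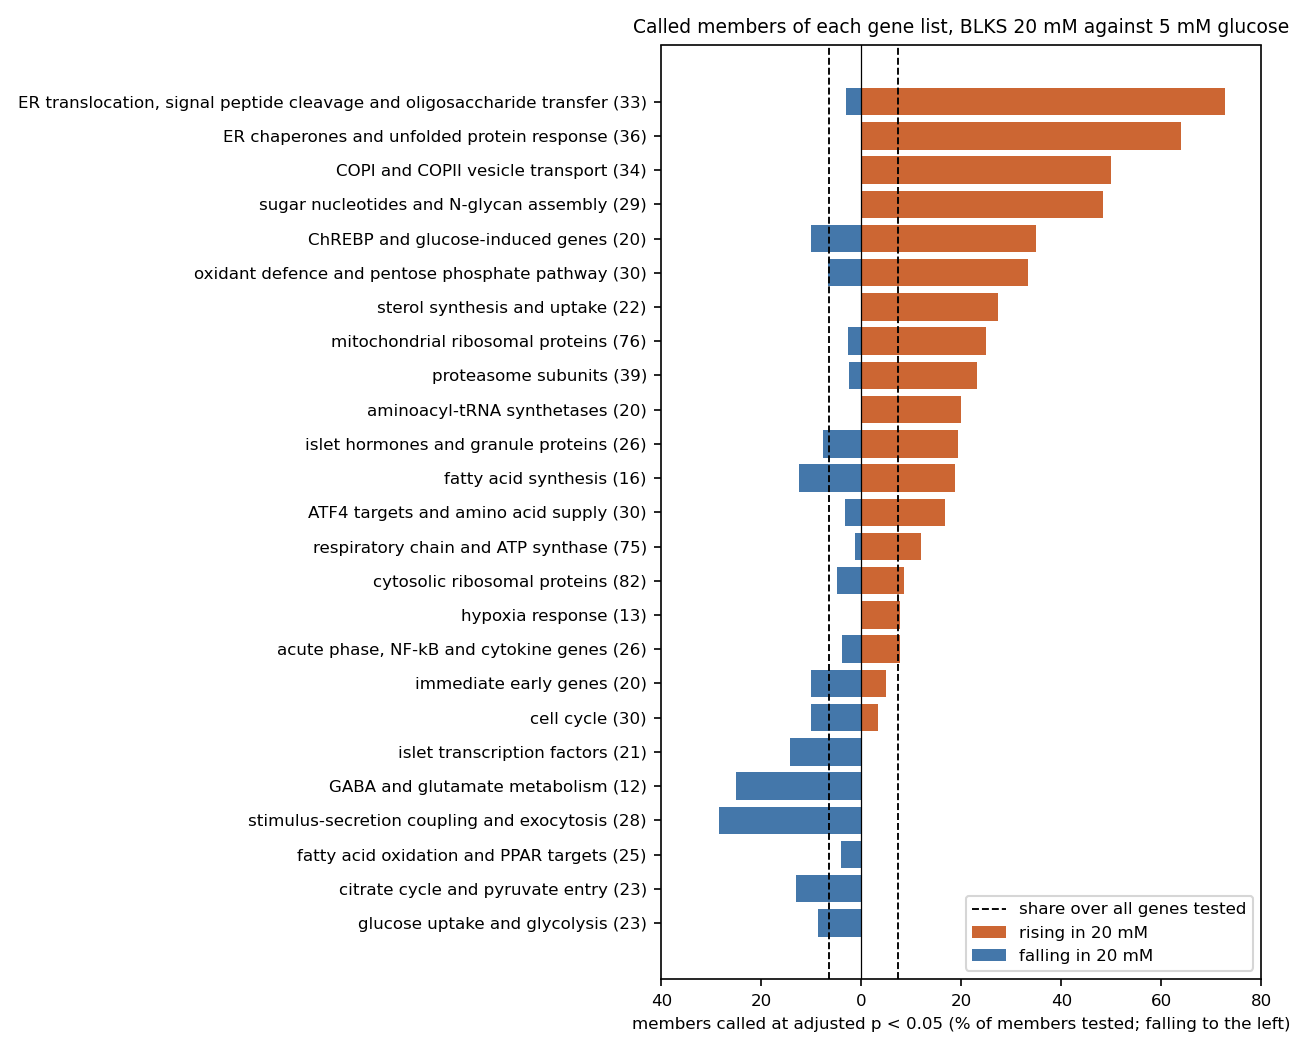
Share of the members of each gene list (number tested in brackets) whose signal rose (right, orange) or fell (left, blue) in BLKS islets in 20 against 5 mM glucose at an adjusted p below 0.05, in percent, with all 9 mice. Dashed lines mark the shares over all genes, 7.38% rising and 6.56% falling, and the 4 secretory pathway lists lie at the top.

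Among ER chaperones and genes of the unfolded protein response, 23 of 36 rose and 0 fell. Without mouse 5, 20 rose, and without both discordant libraries 22 rose. Fkbp11, a prolyl isomerase of the secretory pathway, rose most. It had log2 signals of 10.22, 10.16, 10.46, 10.44 and 9.88 in low glucose mice 1 to 5 and of 11.52, 11.45, 11.25 and 11.40 in high glucose mice 1 to 4. Every high glucose mouse thus lay above every low glucose mouse, with a response of 1.17 ± 0.15 (SE, adjusted p = 5.2e-05) and of 1.09 without mouse 5, while a brighter probe gave 1.14.

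Pdia4, a protein disulphide isomerase, had signals of 10.76, 10.55, 10.81, 10.87 and 10.47 in low glucose and of 11.59, 11.45, 11.44 and 11.52 in high glucose. Its groups did not overlap either, and its response of 0.81 ± 0.09 (adjusted p = 2.7e-05) was 0.75 without mouse 5. Other enzymes of disulphide formation rose less, among them Pdia6 (0.56), P4hb (0.55) and Pdia3 (0.30). Ero1a, the oxidase that recharges them, was less firm. Its signals of 8.76, 9.41, 9.52, 9.66 and 8.49 in low glucose and of 9.79, 9.91, 10.66 and 9.47 in high glucose overlapped, and its response of 0.79 ± 0.24 (adjusted p = 0.039) fell to 0.62 without mouse 5, at an adjusted p of 0.11.

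The chaperones and their partners followed. Sdf2l1, a partner of ER DnaJ proteins, rose by 0.76 ± 0.17 (adjusted p = 0.0068), from signals of 11.83, 11.89, 12.15, 12.10 and 11.32 to signals of 12.65, 12.58, 12.57 and 12.67. Creld2, a secreted ER stress protein, rose by 0.74 ± 0.13 (adjusted p = 0.0013), from 12.88, 12.77, 12.99, 13.15 and 12.52 to 13.78, 13.61, 13.40 and 13.60. Dnajc3, the co-chaperone p58IPK, rose by 0.69 ± 0.12 (adjusted p = 0.00073), from 11.30, 11.39, 11.52, 11.54 and 11.02 to 12.23, 11.88, 11.99 and 12.06. In all of these genes the groups were separate and the lowest mouse was the library labelled BLKS low glucose 5, and each kept its call without it, at responses of 0.63, 0.65 and 0.60. The lectin chaperone Calr (0.62) and the ER form of HSP90, Hsp90b1 (0.55), also rose.

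Hspa5 (BiP), the master ER chaperone, was not called, with a response of 0.24 ± 0.10 (adjusted p = 0.12) around signals of 14.20 to 14.85. The sensor genes Eif2ak3, Atf6 and Ern1 (0.26, 0.18 and -0.14) were not called, and Xbp1 rose by 0.25 (adjusted p = 0.021). Ddit3 (CHOP), the proapoptotic factor of prolonged ER stress, had signals of 8.85 to 9.16 in low glucose and of 8.70 to 9.20 in high glucose, with a response of -0.04 ± 0.10, and the groups overlapped. Of the genes that withdraw misfolded proteins, Derl1 (0.41), Derl3 (0.76) and Syvn1 (0.27) rose, while Herpud1 (-0.10) and Edem1 (-0.07) were not called. Derl3 and Syvn1 lost their calls without mouse 5.

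Promoters of the rising chaperone genes were searched for the ER stress response element on either strand, that is CCAAT and CCACG with 9 letters of any kind between them, which was defined on genes of this kind and binds ATF6 with NF-Y. Sequences are those of RefSeq on GRCm38.p6, from 250 bases before to 50 bases after each start, and 20 of the 23 rising genes had one. The element stands in 7 of these 20 genes (35%), against 21 of 12736 tested genes with a promoter (0.165%). It stands in 39 of all 32851 promoters searched (0.119%) and in 7 of 959 rising genes (0.73%), which are the same 7. Of the 7, Derl3 and Syvn1 lost their calls without mouse 5. The element stands in 0 of 809 falling genes with a promoter, and 3 of the 11 remaining promoters of the list, all of genes that were not called, hold it as well. The 7 promoters are printed because they show where the shared letters lie in genes that rose together, with the element in capitals, and a match is no more than a description of the letters.
Creld2: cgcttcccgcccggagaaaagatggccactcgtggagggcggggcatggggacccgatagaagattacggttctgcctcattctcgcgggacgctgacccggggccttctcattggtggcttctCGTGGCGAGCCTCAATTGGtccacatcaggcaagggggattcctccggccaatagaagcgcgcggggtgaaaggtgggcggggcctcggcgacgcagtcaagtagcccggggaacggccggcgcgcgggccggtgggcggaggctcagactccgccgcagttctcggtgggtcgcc
Derl3: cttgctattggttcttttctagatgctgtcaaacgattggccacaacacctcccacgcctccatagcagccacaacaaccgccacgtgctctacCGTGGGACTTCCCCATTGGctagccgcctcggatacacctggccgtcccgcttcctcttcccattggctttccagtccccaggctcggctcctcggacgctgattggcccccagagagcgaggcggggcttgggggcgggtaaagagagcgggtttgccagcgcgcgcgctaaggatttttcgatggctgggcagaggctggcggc
Dnajc3: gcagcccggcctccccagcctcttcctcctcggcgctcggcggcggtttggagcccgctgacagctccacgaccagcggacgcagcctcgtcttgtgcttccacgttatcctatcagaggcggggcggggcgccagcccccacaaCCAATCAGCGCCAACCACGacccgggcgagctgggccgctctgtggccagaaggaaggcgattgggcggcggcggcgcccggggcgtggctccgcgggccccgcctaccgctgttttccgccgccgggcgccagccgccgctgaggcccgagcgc
Calr: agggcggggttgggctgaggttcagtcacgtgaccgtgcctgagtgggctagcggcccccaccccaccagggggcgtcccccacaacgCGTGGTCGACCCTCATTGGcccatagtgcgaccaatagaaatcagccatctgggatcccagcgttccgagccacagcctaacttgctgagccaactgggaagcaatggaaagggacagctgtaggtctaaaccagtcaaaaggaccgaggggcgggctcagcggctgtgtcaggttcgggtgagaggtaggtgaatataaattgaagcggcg
Pdia6: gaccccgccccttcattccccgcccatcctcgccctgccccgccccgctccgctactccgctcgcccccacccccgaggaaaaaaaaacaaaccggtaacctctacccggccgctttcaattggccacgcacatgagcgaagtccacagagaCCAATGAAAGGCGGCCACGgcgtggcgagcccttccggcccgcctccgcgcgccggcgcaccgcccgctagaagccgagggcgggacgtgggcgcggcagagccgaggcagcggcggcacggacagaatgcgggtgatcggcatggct
Hsp90b1: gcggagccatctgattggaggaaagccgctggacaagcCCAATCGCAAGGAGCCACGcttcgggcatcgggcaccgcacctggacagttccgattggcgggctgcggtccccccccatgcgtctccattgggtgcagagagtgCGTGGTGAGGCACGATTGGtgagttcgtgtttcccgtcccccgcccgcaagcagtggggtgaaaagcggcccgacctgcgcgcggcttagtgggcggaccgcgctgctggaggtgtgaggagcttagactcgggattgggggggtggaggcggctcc
Syvn1: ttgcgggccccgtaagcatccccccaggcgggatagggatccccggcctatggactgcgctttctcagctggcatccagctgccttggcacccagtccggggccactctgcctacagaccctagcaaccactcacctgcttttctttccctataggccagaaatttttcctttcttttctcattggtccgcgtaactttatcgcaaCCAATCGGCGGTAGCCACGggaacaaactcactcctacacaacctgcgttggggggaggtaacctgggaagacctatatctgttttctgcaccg

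On GRCm38.p6 these windows lie at chr15:88819396-88819695 (Creld2, plus strand), chr10:75893148-75893447 (Derl3, plus), chr14:118937682-118937981 (Dnajc3, plus), chr8:84846882-84847181 (Calr, minus), chr12:17266339-17266638 (Pdia6, plus), chr10:86705395-86705694 (Hsp90b1, minus) and chr19:6046326-6046625 (Syvn1, plus). The element began 44 (Syvn1) to 212 (Hsp90b1) bases before the start. Hsp90b1 holds it 2 times, once on each strand, and the letters of Creld2, Derl3 and Calr are on the other strand, where they read CGTGG, 9 letters and ATTGG.

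The machinery that brings proteins into the ER rose in like measure. Of 33 genes for translocation, signal peptide cleavage and oligosaccharide transfer, 24 rose, 1 fell and the median response was 0.32. Without the library labelled BLKS low glucose 5, 20 rose and 0 fell, and the median stayed at 0.32. Srprb, a subunit of the signal recognition particle receptor, had signals of 8.52, 8.46, 8.57, 8.55 and 8.41 in low glucose and of 9.10, 9.20, 9.03 and 9.13 in high glucose. Its groups were far apart for their spread, and the response was 0.61 ± 0.06 (adjusted p = 8.4e-06).

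Tram1, which helps nascent chains through the translocon, was read by 3 probes that agree in direction and differ in size. The dimmest of them had signals of 9.0, 9.09, 9.24, 9.14 and 8.69 in low glucose and of 10.06, 10.03, 10.07 and 10.08 in high glucose, a response of 1.03 ± 0.09 (adjusted p = 3.8e-06), whereas the brighter ones gave 0.48 and 0.45. Subunits of the oligosaccharyltransferase rose together in Dad1 (0.63), Krtcap2 (0.62), Rpn1 (0.49), Ddost (0.40) and Stt3a (0.36). Stt3b, its alternative catalytic subunit, was the member that fell (-0.27, adjusted p = 0.029), and its call was lost without mouse 5 (-0.24, adjusted p = 0.079). The signal peptidase subunits Spcs1 (0.47), Sec11c (0.41) and Spcs3 (0.36) rose as well, as did the translocon genes Sec61b (0.37) and Sec61a1 (0.27).

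Of 34 genes of COPI and COPII vesicles and their cargo receptors, 17 rose and 0 fell (13 without mouse 5). Copz2, a coatomer subunit, had signals of 9.26, 9.12, 9.20, 9.19 and 9.10 in low glucose and of 9.91, 10.18, 9.71 and 9.91 in high glucose. The groups did not overlap, and the response was 0.76 ± 0.07 (adjusted p = 5.4e-06). All 3 KDEL receptors, which return chaperones from the Golgi, rose, with responses of 0.77 (Kdelr3), 0.39 (Kdelr1) and 0.32 (Kdelr2).

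Of 29 genes that make sugar nucleotides and assemble N-glycans, 14 rose and 0 fell (12 without mouse 5). Alg5, which makes dolichyl phosphate glucose, had signals of 8.98, 8.99, 9.11, 9.09 and 8.79 in low glucose and of 9.72, 9.62, 9.68 and 9.84 in high glucose. Its response was 0.72 ± 0.08 (adjusted p = 9.6e-06) and its groups were separate. Alg14 (0.58), Nans (0.50) and Dpagt1 (0.43), of which the last adds the first sugar to dolichol, rose too.

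**Figure D2:**
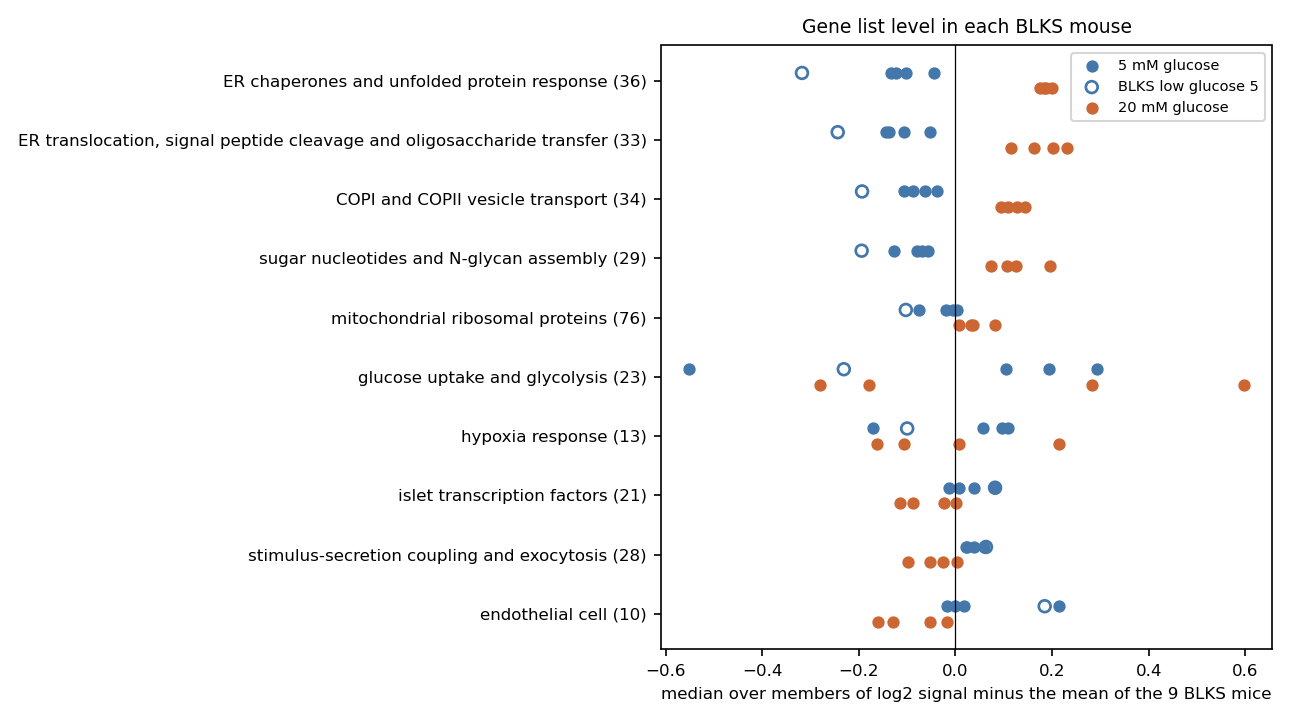
Median over the members of 10 gene lists (number of genes in brackets) of the log2 signal minus the mean of the 9 BLKS mice, with each point 1 mouse; blue points are mice in 5 mM glucose, the open circle is the library labelled BLKS low glucose 5 and orange points are mice in 20 mM glucose. In the 4 secretory pathway lists every high glucose mouse lies above every low glucose mouse, while the glycolysis list spreads from -0.55 to 0.60 with the groups mixed.

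Granule proteins rose less often than the genes of the ER lists. Of 26 genes of islet hormones and granule proteins 5 rose (19.2%, against 7.38% of all genes) and 2 fell (7.69%, against 6.56%), with a median response of -0.10. Without mouse 5, 4 rose and 1 fell, and without both discordant libraries 5 rose and 2 fell. Of the 26 genes, 8 were saturated in at least 1 dye in every mouse, so that a rise in them could be understated or missed. Ttr, the hormone carrier transthyretin, had signals of 7.63, 7.35, 7.52, 7.59 and 7.94 in low glucose and of 9.14, 8.47, 8.79 and 8.99 in high glucose, a response of 1.24 ± 0.15 (adjusted p = 3.1e-05). Ptprn (IA-2), a membrane protein of the secretory granule, rose by 0.73 ± 0.10 (adjusted p = 0.00019) from 10.96, 10.91, 11.16, 11.11 and 10.77 to 11.55, 11.67, 11.95 and 11.68. In both genes the groups were separate. Pam, which amidates peptides (0.73), and Scg3, a granin-binding protein (0.51), rose, and the carboxypeptidase Cpe fell by 0.40 on the log2 scale (adjusted p = 0.015). Resp18 (-0.46) fell and Pcsk1 (0.44) rose with all 9 mice, and both had an adjusted p of 0.056 without mouse 5.

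The genes with the largest changes were named by a fixed rule, which took the 15 largest rises and 10 largest falls among genes called with and without mouse 5 whose groups did not overlap. The ER genes Fkbp11 and Tram1 are among these rises. Their order and separation follow from that rule, beside which 7.39% of all genes were separate and lower. The largest rise was that of S100a9, a calcium-binding protein of myeloid cells. Its log2 signals were 6.20, 6.60, 6.24, 6.76 and 5.95 in low glucose and 9.08, 9.02, 7.75 and 8.1 in high glucose. High glucose mice 1 and 2 stood above mice 3 and 4, and the response was 2.14 ± 0.34 (adjusted p = 0.00038), or 2.04 without mouse 5. In 4 of the 5 low glucose mice it was well above background in all channels.

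S100a9 is also on the list of neutrophil markers, of which 4 of 13 were bright enough to be tested. The other 3, Ltf, Mpo and Mmp9, had mean log2 signals of 6.12 to 6.33 in low glucose and of 6.16 to 6.32 in high glucose, and none was called. The summed signal of the 4 genes, S100a9 included, was 283 to 332 units in the low glucose mice and 439 to 778 units in the high glucose mice. Since the other 3 had similar means in both groups, this gap mostly restates the rise of S100a9. It is thus no separate measure of the neutrophil list. The part of neutrophils in the rise of S100a9 was not tested, and in whole islets a change in the number of cells and in the RNA of each cell cannot be told apart.

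The other leading rises belong to several functions. Txnip, which binds thioredoxin and limits glucose uptake, had signals of 9.39, 9.12, 9.26, 8.85 and 10.11 in low glucose and of 10.88, 10.87, 10.85 and 11.73 in high glucose, so that mouse 5 was the low glucose mouse nearest to the high group. Its response was 1.74 ± 0.27 (adjusted p = 0.00036) with all mice and 1.93 without that library, the opposite shift to S100a9. A dimmer probe of Txnip gave 0.59.

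Slc7a3, a transporter of arginine and lysine, had signals of 7.99, 7.75, 7.79, 7.86 and 6.96 in low glucose and of 9.36, 9.13, 8.97 and 9.24 in high glucose. The spread of its low group came mostly from mouse 5, without which the response was 1.33 and not 1.5 (adjusted p = 6.9e-05 without it). Cgref1, a secreted calcium-binding protein, had signals of 8.55, 8.1, 8.36, 8.44 and 8.26 in low glucose and of 9.99, 9.83, 9.57 and 9.86 in high glucose. Its response of 1.47 ± 0.11 (adjusted p = 5.3e-07) was 1.45 without mouse 5, hence nearly the same.

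Ttyh1, a membrane protein of the tweety family, rose by 1.22 ± 0.27, and Csn3, κ-casein, by 1.20 ± 0.21. Nptx2, a secreted pentraxin, rose by 1.13 ± 0.27, and without mouse 5 these 3 responses were 0.99, 1.08 and 0.87. A dim probe of Ttyh1, with signals of 6.07 to 6.16 in all 9 mice, gave 0.00. Dapl1 (1.13), Serpina7, the thyroxine-binding globulin (1.07), Hsd3b7, an enzyme of bile acid synthesis (1.04), and Stc2, a secreted glycoprotein (0.93), rose too. A probe filed as A030006P16Rik, which RefSeq lists under Krtap17-1, rose by 1.20, with 3 of the 5 low glucose mice well above background.

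**Figure D3:**
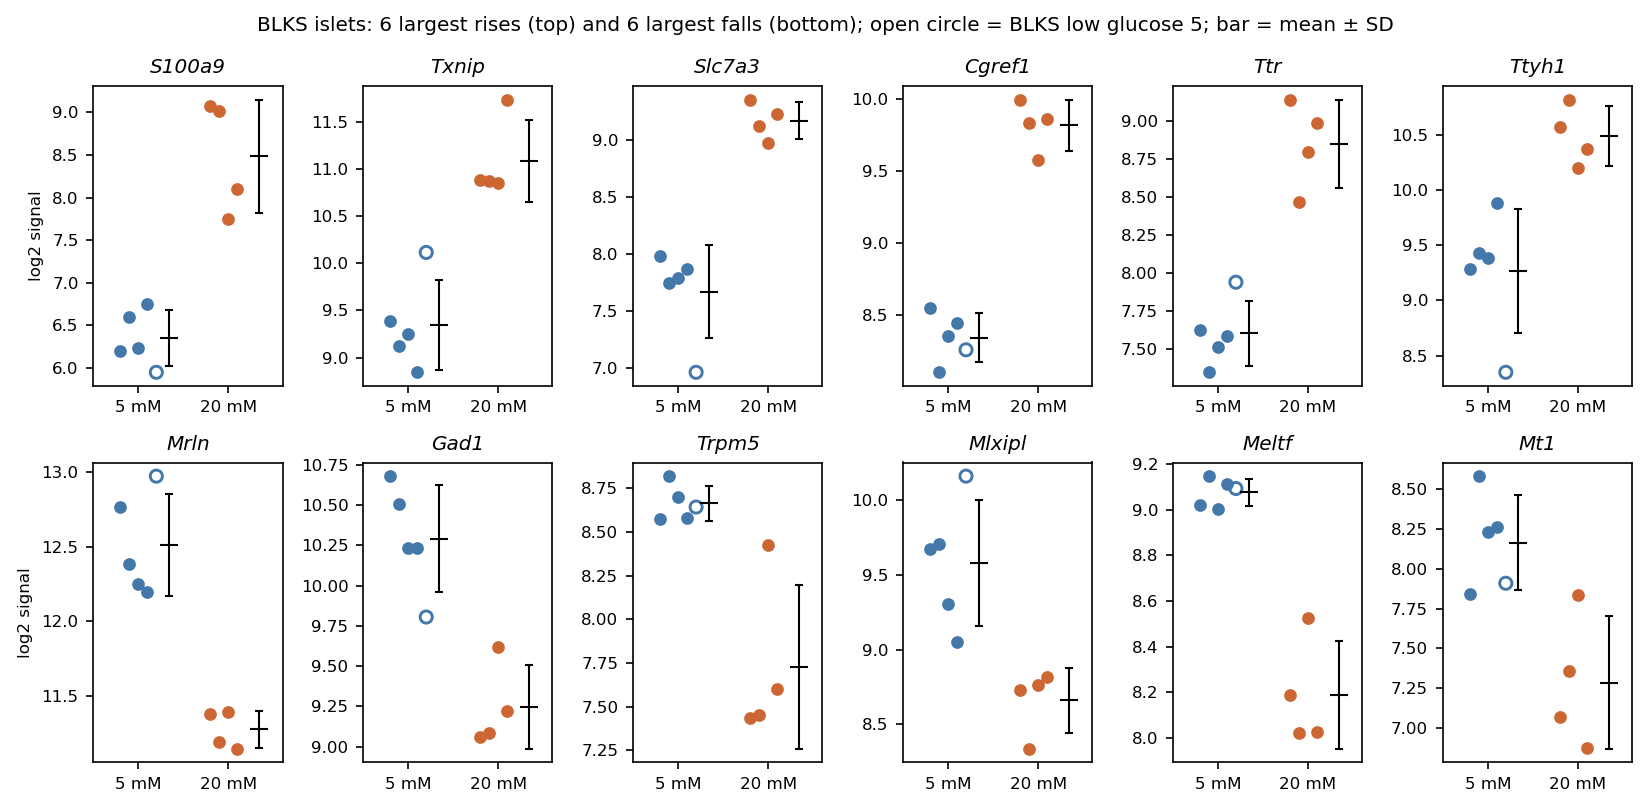
Log2 signal of the 6 genes with the largest rises (top) and the 6 with the largest falls (bottom) in each BLKS mouse at 5 mM (blue) and 20 mM (orange) glucose; open circles are the library labelled BLKS low glucose 5, bars are the mean ± SD (n = 5 and n = 4), and each panel has its own axis. The groups are separate in every panel, as the rule requires, and the open circle is the lowest low glucose mouse for S100a9, Slc7a3, Ttyh1 and Gad1 and the highest for Txnip, Ttr, Mrln and Mlxipl.

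The 10 leading falls ranged from -1.24 to -0.85 and the 15 leading rises from 0.93 to 2.14. Mrln, listed by the array under a cDNA name and now annotated as the muscle micropeptide myoregulin, had signals of 12.76, 12.38, 12.25, 12.20 and 12.97 in low glucose and of 11.38, 11.19, 11.39 and 11.15 in high glucose, a response of -1.24 ± 0.15 (adjusted p = 5.1e-05). Gad1, the glutamate decarboxylase that makes GABA, had signals of 10.68, 10.51, 10.23, 10.24 and 9.81 in low glucose and of 9.06, 9.08, 9.62 and 9.22 in high glucose, a response of -1.05 ± 0.15 (adjusted p = 0.00017). Mouse 5 was here the low glucose mouse nearest to the high group, and the response without it was -1.17. Abat, which breaks GABA down, fell as well, with a response of -0.42. Of 12 genes of GABA and glutamate metabolism 3 fell (25%, against 6.56% of all genes, and 2 without mouse 5) and 0 rose.

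Trpm5, a cation channel of the β-cell that opens on calcium, had signals of 8.57, 8.82, 8.70, 8.58 and 8.64 in low glucose and of 7.44, 7.45, 8.42 and 7.60 in high glucose. High glucose mouse 3 lay close to the low group, and the response was -0.93 ± 0.14 (adjusted p = 0.00033). Rbm3 and Cirbp, both RNA-binding proteins that are induced by mild cold, fell together. Rbm3 had signals of 12.21, 12.20, 12.14, 12.20 and 11.84 in low glucose and of 11.18, 11.34, 11.20 and 11.26 in high glucose (response -0.88), and Cirbp had signals of 12.07, 11.80, 11.65, 11.62 and 11.67 against 10.91, 10.86, 10.93 and 10.96 (response -0.85). The other leading falls were those of Mlxipl by its dimmer probe (-0.92), Meltf, a transferrin homologue (-0.89), the metallothionein Mt1 (-0.88), the glutathione transferase Gstm1 (-0.87), whose sequence is close to that of other Gstm genes, and Cryl1, an enzyme of sugar metabolism (-0.86). Other probes disagreed in part, since the brightest probe of Mt1 (-1.10, adjusted p = 0.052) and dimmer probes of Rbm3 (-0.19) and Cryl1 (-0.16) were not called.

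Mlxipl (ChREBP) fell by both of its probes. It had signals of 11.37, 11.43, 10.87, 10.68 and 11.97 by its brightest probe in low glucose and of 10.41, 10.24, 10.50 and 10.55 in high glucose. Its groups were separate, with a response of -0.84 ± 0.22 (adjusted p = 0.016) and of -0.66 without mouse 5, which had the highest signal. Of 20 ChREBP and glucose-induced genes 7 rose and 2 fell, against 7.38% and 6.56% of all genes. Arrdc4, a relative of Txnip, rose by 0.37 and Fasn, the fatty acid synthase, by 0.19, while Khk, the fructose kinase, fell with Mlxipl (-0.56).

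Slc2a2 (GLUT2), the glucose transporter of mouse β-cells, had signals of 12.79, 12.48, 12.33, 11.96 and 12.65 in low glucose and of 11.62, 11.45, 11.79 and 11.94 in high glucose. The groups were separate by a small margin, and the response was -0.74 ± 0.13 (adjusted p = 0.0011). Gipr, the receptor of the incretin GIP, had signals of 10.05, 10.27, 9.75, 9.70 and 10.33 in low glucose and of 9.25, 9.02, 9.51 and 9.07 in high glucose, a response of -0.81 ± 0.14 (adjusted p = 0.0008). Of 28 genes of stimulus-secretion coupling and exocytosis 8 fell and 0 rose (6 fell without mouse 5), against 6.56% of all genes falling. Among these were Snap25 (-0.28) and Vamp2 (-0.21, adjusted p = 0.05), parts of the machinery of membrane fusion. The channel genes Abcc8 and Kcnj11 were not called, with responses of 0.12 and 0.04.

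The islet transcription factors showed 3 falls and 0 rises among 21 genes (14.3% falling, against 6.56% of all genes). Neurod1 (-0.23), Myt1 (-0.33) and Pax6 (-0.25) fell, the last only with all 9 mice, and Pdx1, Nkx6-1 and Mafa were not called (0.13, -0.23 and -0.22). Ucn3, a peptide of mature β-cells, fell from signals of 11.22, 11.05, 10.99, 10.72 and 11.33 to signals of 10.39, 10.54, 10.56 and 10.60, a response of -0.54 ± 0.11 (adjusted p = 0.0037). Of the 8 β-cell markers, Slc2a2 and Ucn3 fell (25%, against 6.56% of all genes) and 0 rose, while 3 of the 8 were saturated in every mouse.

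In metabolism, the enzymes of glycolysis varied more between mice than between glucose concentrations. Ldha, the lactate dehydrogenase, had signals of 8.83, 10.45, 10.77, 10.78 and 9.70 in low glucose and of 10.05, 10.89, 11.50 and 9.83 in high glucose, with a response of 0.46 ± 0.37 (adjusted p = 0.47). The median SD over the 5 low glucose mice was 0.38 for 23 genes of glucose uptake and glycolysis, against 0.08 over all genes, and it was 0.43 against 0.08 over the 4 high glucose mice. Low glucose mice 1 and 5 and high glucose mice 1 and 4 were low in these genes. Only Slc2a2 and Pfkfb2 (-0.52) were called, both as falls, which is 8.70% of the list, against 6.56% of all genes. Ero1a and P4ha1, a collagen prolyl hydroxylase on the hypoxia list (0.65 ± 0.18, adjusted p = 0.027), were likewise highest in high glucose mouse 3, as was the glycolysis list, whose part in their responses was not tested. P4ha1 was the one called gene of 13 on the hypoxia list (7.69% rising, against 7.38% of all genes). It had an adjusted p of 0.066 without mouse 5.

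Of 23 genes of the citrate cycle and pyruvate entry 3 fell and 0 rose, with and without mouse 5, against 6.56% of all genes falling with all 9 mice. Pcx, the pyruvate carboxylase that feeds the cycle in β-cells, had signals of 11.66, 11.76, 11.70, 11.66 and 11.65 in low glucose and of 11.33, 11.26, 11.37 and 11.44 in high glucose. It changed little in size but with a small spread, by -0.33 ± 0.04 (adjusted p = 9.6e-05). Idh2 (-0.42) and Fh1 (-0.32) fell too. Of 22 genes of sterol synthesis and uptake 6 rose (27.3%, against 7.38% of all genes) and 5 without mouse 5, led by Ebp (0.48) and Sqle (0.39).

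Of 30 ATF4 targets and genes of amino acid supply 5 rose (16.7%, against 7.38% of all genes) and 1 fell, with Slc7a3 and Pycr1, an enzyme of proline synthesis (0.71 ± 0.08, adjusted p = 2.9e-05), in the lead. Atf4 and Trib3 were not called (0.28 and 0.34). Without mouse 5, 4 members of this list rose, and 7 rose without both discordant libraries. Of 20 aminoacyl-tRNA synthetases 4 rose (20%), and 2 without mouse 5. Of 30 genes of oxidant defence and the pentose phosphate pathway 10 rose (33.3%) and 2 fell (6.67%, against 6.56% of all genes). Without mouse 5, 6 rose and 3 fell. Srxn1 (0.38) and Txn2 (0.36) were among the 10 rises, and Gpx1 (-0.25) and Txnrd1 (-0.22) were the 2 falls.

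Among mitochondrial ribosomal proteins 19 of 76 rose (25%, against 7.38% of all genes) and 2 fell, and 13 rose without mouse 5, with small responses up to 0.38 (Mrpl15). The cytosolic ribosomal proteins stayed near the background, with 7 of 82 rising and 4 falling. The proteasome had 9 of 39 subunits rising and 1 falling, which was the immunoproteasome subunit Psmb9 (-0.31), and the respiratory chain 9 of 75 rising and 1 falling. Without mouse 5 these rises were 6 and 4, beside 5.82% of all genes. Of 26 acute phase, NF-κB and cytokine genes 2 rose (7.69%, against 7.38% of all genes) and 1 fell. The rises of C3 (0.62) and Saa3 (0.39) lost their calls without mouse 5, while 2 of the 26 genes rose without both discordant libraries. Of 30 cell cycle genes 1 rose (Rrm2, 0.29) and 3 fell (10%, against 6.56% of all genes). The 3 falls lost their calls without mouse 5, and 1 of the 30 genes fell without both discordant libraries.

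Markers of other cell types were followed as measured. Of 10 endothelial markers 4 fell (40%, against 6.56% of all genes, and 3 without mouse 5) and 0 rose, with a median response of -0.28. The 4 were Emcn (-0.52), Flt1 (-0.41), Kdr (-0.31) and Cdh5 (-0.30), whereas Pecam1, Tie1 and Esam were not called (-0.07, -0.04 and 0.00). The summed signal of the endothelial list was 2676 to 3086 units in the low glucose mice and 2061 to 2427 units in the high glucose mice, without overlap. The median level per mouse, which weights its genes equally, was -0.02 to 0.21 and -0.16 to -0.02, and by that measure the groups overlapped slightly. Of 12 acinar markers tested 2 fell (16.7%), which were Ctrb1 (-0.32) and Cel (-0.34), and of 11 macrophage markers 1 fell (9.09%), which was Lyz2 (-0.60). Cel and Lyz2 had an adjusted p of 0.088 and 0.065 without mouse 5. No marker of α-, δ-, PP, mesenchymal, T, B or Schwann cells was called, and of 8 duct markers Epcam rose (0.37), which is 12.5%, against 7.38% of all genes. The part of these cells in the gene groups above was not tested.

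The response moved by over 0.2 on the log2 scale, once mouse 5 was left out, at 111 of the 29326 probes tested, of which 5 were called with all 9 mice. The genes that moved most were not called with either set of mice. Both fits still held the library labelled B6 low glucose 4, which lay with the BLKS mice and entered the shared spread. For genes that differ between the strains, a missing call in these fits therefore cannot show that a response was absent. A probe of H2-Q1, a class I histocompatibility gene, had signals of 6.40, 6.12, 6.21 and 5.89 in low glucose mice 1 to 4 and of 11.37 in mouse 5, against 6.32, 6.12, 6.21 and 6.04 in high glucose. Its response was -1.02 ± 1.05 with all mice and 0.02 without that library. Class I genes are near-identical in parts, and another probe filed under H2-Q1 rose by 0.38. For 6330403K07Rik the same mouse had 7.95, against 12.84 to 13.05 in the other low glucose mice and 12.30 to 12.63 in high glucose, and the response turned from 0.59 to -0.41.

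Plagl1, a zinc finger gene, behaved in the same way, with 8.90 in mouse 5, 11.79 to 12.17 in the other low glucose mice and 11.77 to 12.03 in high glucose, and with responses of 0.57 and -0.04. Spp1 (osteopontin), a secreted phosphoprotein, had signals of 13.28, 13.43, 13.83, 14.06 and 11.33 in low glucose and of 15.05, 15.12, 13.81 and 15.19 in high glucose. The groups overlapped at high glucose mouse 3, and the response was 1.6 ± 0.55 (adjusted p = 0.066) with all mice and 1.14 without mouse 5 (adjusted p = 0.17). Lcn2, an iron-binding protein of the acute phase, had signals of 8.28, 8.73, 8.08, 8.84 and 6.32 in low glucose and of 9.59, 9.63, 8.87 and 9.25 in high glucose. Its groups were separate, but its response of 1.29 ± 0.53 (adjusted p = 0.14) was 0.85 without mouse 5 (adjusted p = 0.33), and Lrg1, a secreted glycoprotein of the acute phase, was not called either (1.16 ± 0.45, adjusted p = 0.11). The responses of Spp1 and Lcn2 thus did not pass the test in either set, and that of Spp1 was called when both discordant libraries were left out (1.14, adjusted p = 0.0054).

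**Figure D4:**
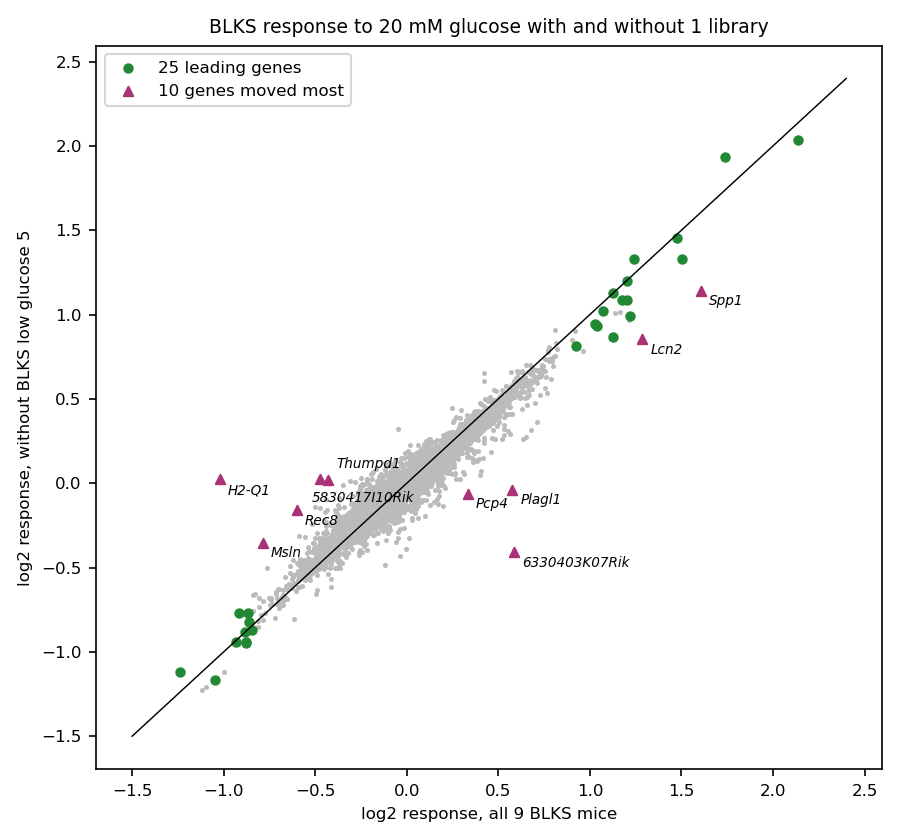
Log2 response of every tested probe in BLKS islets with all 9 mice (horizontal) and with BLKS low glucose 5 left out (vertical), with the line of equal responses. The 25 leading genes (green) lie near the line, while H2-Q1 (-1.02 and 0.02), 6330403K07Rik (0.59 and -0.41) and Plagl1 (0.57 and -0.04) are among the 10 genes (purple) that lie far from it.

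The responses were then set beside those of B6 islets, which share no mice with the BLKS comparison, although mice of the same number and glucose concentration from both strains shared arrays. In B6 islets 2796 probes were called (9.53% of those tested, with 5.41% rising and 4.12% falling). Of the 3403 probes called in BLKS islets, 3311 (97.3%) had the same sign in B6 islets and 1682 were called there in the same direction. These counts, and those below for leading and secretory genes, include both discordant libraries, each of which lay with the other strain on the scale above. Agreement without these libraries is not given, nor is the share of all probes with the same sign. Over probes, mice of the 2 strains that shared arrays correlated in their deviations from the group means. The coefficients were 0.02 to 0.66 in low glucose and 0.37 to 0.69 in high glucose. The part of shared arrays in the agreement between strains was not tested. All 15 leading rises and 9 of the 10 leading falls had the same sign in B6 islets, and 19 of these 25 genes were called there. In the secretory lists 80 of 132 genes rose and 0 fell in B6 islets, against 6.59% and 5.38% over all genes, and 67 rose in both strains, at a median response of 0.26 in B6 and 0.25 in BLKS islets.

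The difference between the strains' responses was tested for every probe in one model. It was called at 12 of 29326 probes (0.0409%) with all mice and at 17 without both discordant libraries, of which 6 were called in both. Without mouse 5 alone 3 were called, those of Slc5a10, Meltf and Meox1, a homeobox gene. With the pair of arrays that 2 mice shared as a random block it was called at 236 probes, and leaving out 1 mouse at a time gave 1 to 16. None of the 132 secretory genes was called. Of the 25 leading genes 1 was, Meltf, which fell in BLKS islets from signals of 9.02, 9.15, 9.0, 9.11 and 9.09 to signals of 8.19, 8.02, 8.52 and 8.02. In B6 islets it had signals of 8.73, 9.13, 8.91, 8.71 and 8.62 in low glucose and of 8.96, 8.87, 8.91, 8.79 and 8.93 in high glucose, which overlap. The responses were -0.89 in BLKS and 0.07 in B6 islets, a difference of -0.96 (adjusted p = 0.015).

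Slc5a10 and Klf10 rose less in BLKS than in B6 islets. Slc5a10, a sugar transporter of the SGLT family, had signals of 7.58, 7.53, 7.45, 7.58 and 7.83 in the BLKS low glucose mice and of 8.14, 7.89, 7.83 and 8.47 in high glucose. In B6 islets it had signals of 7.83, 7.79, 7.87, 7.61 and 7.79 and then of 9.78, 9.83, 9.80, 10.03 and 9.57, so that no BLKS mouse in high glucose reached the B6 mice. The responses were 0.49 and 2.03, a difference of -1.54 (adjusted p = 0.00018).

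Klf10, a transcription factor induced by glucose, had signals of 8.01, 8.02, 8.15, 8.17 and 8.23 in the BLKS low glucose mice and of 8.35, 8.44, 8.38 and 8.70 in the high glucose mice. The groups were separate, and the response of 0.35 stood against 1.06 in B6 islets (difference -0.71, adjusted p = 0.037). That p was 0.076 without mouse 5 and 0.056 without both discordant libraries. Hnrnpa1, an RNA-binding protein with many near-identical pseudogenes, fell by its brightest probe in BLKS islets (-0.31) and not in B6 islets (0.01), with a difference of -0.32 (adjusted p = 0.037, and 0.063 without mouse 5), while its 3 other probes had responses of -0.04 to 0.13 in BLKS islets.

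Slco1a5, an organic anion transporter, had the larger response in BLKS islets, but the call of this difference was lost without mouse 5 (adjusted p = 0.076) and without both discordant libraries (0.062). Its signals were 6.37, 6.38, 6.37, 6.42 and 6.30 in low glucose and 7.35, 7.39, 7.08 and 7.33 in high glucose, a response of 0.92 ± 0.06 against 0.46 in B6 islets (difference 0.46, adjusted p = 0.037). A second probe gave 0.56 and 0.20. S100a9, with responses of 2.14 and 0.71, and Txnip, with 1.74 and 2.13, were not called for a difference, that of S100a9 at an adjusted p of 0.81. Stc2 had responses of 0.93 in BLKS and 0.23 in B6 islets, and their difference was not called (adjusted p = 0.24).

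**Figure D5:**
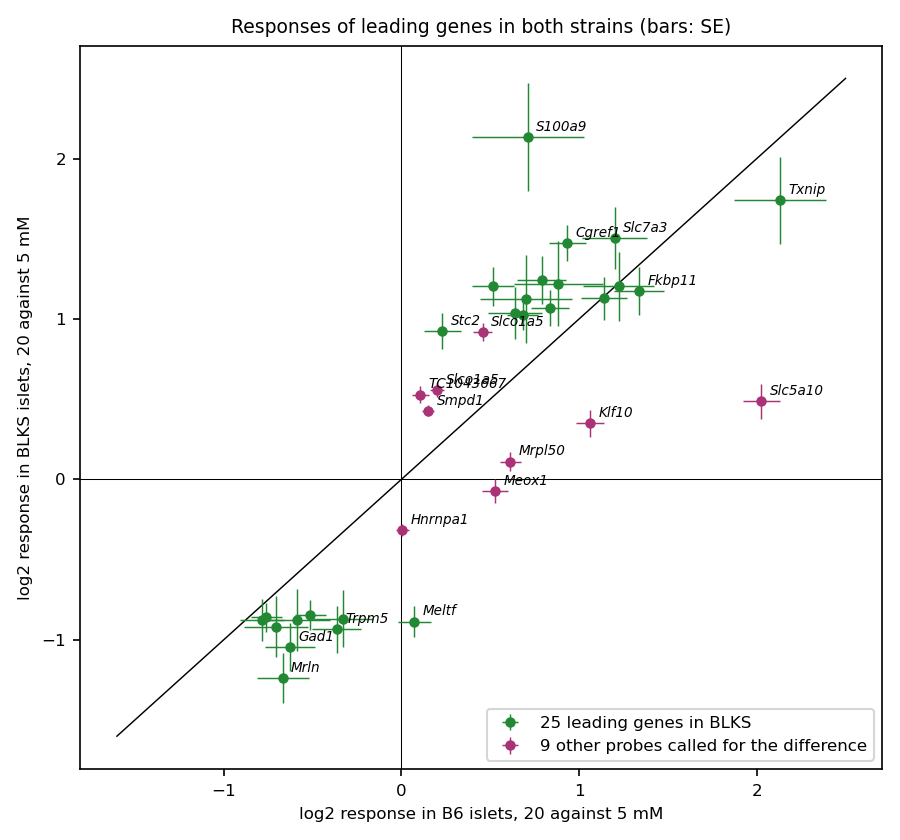
Log2 response to 20 against 5 mM glucose in B6 (horizontal) and BLKS islets (vertical), with bars of 1 SE and the line of equal responses; green points are the 25 leading genes of BLKS islets and purple points 9 other probes called for the difference. Slc5a10 (2.03 and 0.49) and Klf10 (1.06 and 0.35) lie below the line, Slco1a5 lies above it, and Meltf (0.07 and -0.89) lies apart from the other leading falls.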

How the data were processed

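The deposited intensity values came, per the file headers, from Agilent Feature Extraction 9.5.3.1, while the submitters' processing notes name version 8.1. They had been dye-normalized within each array, with no background correction. The authors also deposited a table of log2 values per sample, which served as an alternative. From the processed intensities, control spots and outlier spots were left out, log2 values were scaled between arrays (Aquantile), and spots of a probe and dyes of a mouse were averaged. Probes well above background in all channels of 4 or more mice were tested, which left 29326 of 41174 probes. This call rests largely on Cy5, since 25931 to 34798 spots of an array passed in Cy5 and 37108 to 41531 in Cy3.

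All 19 mice entered 1 fit in limma 3.58.1 (R 4.3.3, tables read with data.table version 1.17.8), whose 4 group means shared a moderated variance, and p-values were adjusted over all probes (Benjamini-Hochberg, 0.05). Single probes were checked with a two-sided exact permutation test, whose smallest p is 0.00794 for 5 against 4 mice and 0.0286 for 4 against 4. For the leading genes its outcome follows from their choice by separate groups, so that it lends them no further support. Genes were matched to RefSeq on GRCm38.p6, which gave 1 gene for 24088 probes (82.1%), and lists used the brightest probe of a gene. The named genes are the leading changes described in the report, the called and defining members of each list, the 10 genes moved most by the library labelled BLKS low glucose 5, the probes called for the difference and the glucose genes of the paper. Values of some of these genes are not reported here. The genes, lists and tests were chosen with earlier results of these data known. On simulated data with 200 of 29323 probes changed, limma recovered 96.5% at 1.5-fold and 98% at 2-fold, with 4.46% and 4.85% false calls. Nothing states more than that the samples are separate mice, so p-values measure the spread between mice, and their number limits the precision. Summaries used Python 3.11.15, numpy 2.4.6, pandas 2.3.3, scipy 1.17.1 and matplotlib 3.10.9.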

Additional observations from a re-analysis of the deposited data

Results flagged for a closer look

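Of 106 groups of BLKS mice looked at over 53 probes, 16 held a mouse far from the others. The library labelled BLKS low glucose 5 was that mouse 10 times, but 10 of the probes were chosen because this library moved them most, so that no chance rate applies to them. Over the other 43 probes a mouse stood apart in 7 of 86 groups, and 2 times it was that library. Chance would give about 1 in 20 groups for probes picked without regard to their values. These 43 were also named from the same data and mice, so that this rate is no test of them. It was high for H2-Q1 (11.37), Rec8 (11.59), 5830417I10Rik (8.78) and Thumpd1 (8.33), and low for 6330403K07Rik (7.95), Plagl1 (8.90), Pcp4 (7.53), Spp1 (11.33), Slc7a3 (6.96) and Rbm3 (11.84), all as log2 signals. High glucose mouse 4 was high for Txnip (11.73). High glucose mouse 3 was low for Spp1 (13.81), Krtap17-1 (6.81) and Smpd1 (11.89) and high for Trpm5 (8.42), and low glucose mouse 1 was high for Hnrnpa1 (10.72).

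The response to glucose differed between the strains by the test of the difference itself at the 10 probes given here. As the BLKS response minus the B6 response on the log2 scale, it was -1.54 for Slc5a10, -0.96 for Meltf, -0.71 for Klf10, -0.60 for Meox1, -0.50 for Mrpl50, -0.32 for Hnrnpa1, 0.28 for Smpd1, 0.36 and 0.46 for probes of Slco1a5 and 0.42 for the unnamed transcript TC1043667. Without BLKS low glucose 5, Slc5a10, Meltf and Meox1 were still called for a difference, and none of the differences above 0 was called then or without both discordant libraries. The probe of TC1043667 was well above background in 0 of the BLKS low glucose mice.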

How the results depend on the processing

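The number of probes called in BLKS islets moved from 3403 to 2151 without scaling between arrays (31.4% of them rising, against 55.8%), to 997 on the authors' table of log2 values and to 6515 when single dye values were fitted by the linear model of the methods. Secretory genes rising moved from 78 to 48 without scaling. The cause was not tested. The 12 calls of a difference moved to 236 with a random block for shared arrays, to 295 under the methods' model, to 5 without scaling, to 4 on the authors' table, to 7 with all 9 BLKS mice above background and to 6 and 7 with Cy5 or Cy3 alone. Leaving out 1 mouse gave 2287 to 3652 calls in BLKS islets, 61 to 83 secretory genes rising and 1 to 16 differences. The lowest counts of differences, 1 each, came without B6 high glucose 1, BLKS high glucose 1 or BLKS high glucose 2, and 3 were left without BLKS low glucose 5. The count of BLKS calls stayed within 1.5 times under the other settings, and of 130 named probes called, 68 were called under all 34 other settings and 0 reversed. Same-numbered low and high glucose mice correlated in their deviations at 0.30, -0.015, 0.18 and 0.0073, and mice of different numbers at -0.39 to 0.22. These few values cannot decide whether the numbers pair the mice. With the number as a replicate block, 3825 probes were called, with 11 differences and 73 secretory genes rising. Signals near background and saturated hormone probes limit what could be measured.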
